A study of Homo sapiens with 78 samples.

Results

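The nuclear-encoded subunits of oxidative phosphorylation were followed in single cells of 2 human cell lines. Members were the protein-coding genes whose GENCODE symbol begins with NDUFA, NDUFB, NDUFC, NDUFS, NDUFV, UQCR, COX4, COX5, COX6, COX7, COX8 or ATP5, together with SDHB, SDHC, SDHD and CYC1, and without the NDUFAF assembly factors. The rule found 90 of the 19770 protein-coding genes, of which 38 belong to complex I, 3 to complex II, 10 to complex III, 19 to complex IV and 20 to the ATP synthase. NDUFA4 and its paralog NDUFA4L2 were counted with complex IV, where NDUFA4 is a subunit. A375 is a human melanoma line and Jurkat (clone E6-1) is a human T cell leukemia line. Untreated cells of both lines were sorted by FACS, 1 cell per tube, and their total RNA was made into strand-specific, randomly primed libraries with the reagents of kit #634413 (SMARTer Stranded v2 Pico Input) or kit #634444 (SMART-Seq Stranded). A375 cells were grown in DMEM, labelled with anti-CD47 and sorted into PBS, whereas Jurkat cells were grown in RPMI, labelled with anti-CD81 and sorted into lysis solution. The line, its medium, its antibody and its sort buffer therefore changed together, and their parts in a difference cannot be told apart.

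Oxidative phosphorylation takes place in the inner mitochondrial membrane. Complex I takes electrons from NADH and complex II takes them from succinate, both pass them through ubiquinone to complex III, cytochrome c carries them on to complex IV, and the proton gradient built on the way drives the ATP synthase. Each of these complexes apart from complex II joins subunits of the nuclear genome with a few catalytic subunits made from mitochondrial DNA. Several nuclear subunits exist as a common form and a form restricted to tissues such as heart, skeletal muscle, lung or testis, and proliferating cell lines are known to use mainly the common forms.

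The 78 deposited libraries comprise 21 A375 and 18 Jurkat cells for each kit. The values below come from the 67 libraries with at least 100000 estimated counts on protein-coding genes, which are 15 A375 cells and 18 Jurkat cells with kit #634413 and 16 A375 cells and 18 Jurkat cells with kit #634444. They held between 327162 and 2567265 estimated counts per cell. The 11 libraries left out were all A375 and held between 146 and 31669.8 counts on protein-coding genes. Marker genes matched the labels, since the summed T cell markers lay above the summed melanoma markers in 18 of 18 and 18 of 18 Jurkat cells, and the melanoma markers lay above the T cell markers in 15 of 15 and 16 of 16 A375 cells. The 10 T cell markers summed to a level of at most 119.8 in A375 cells and of between 1216 and 4446 in Jurkat cells, with CD3D, CD3E, CD2 and TRAC at 0 in every A375 cell. The 12 melanoma markers summed to between 1416 and 9229 in A375 cells and to at most 381.9 in Jurkat cells, with PMEL and CAV1 at 0 in every Jurkat cell. No label names the cultures behind the cells, so the cells of a group count as 1 sample of a culture. For that reason no p-value is given, the spread over cells is a description, and differences are described by their size, with a threshold of 2-fold. Intervals in square brackets are exact 95% CI of summed counts or shares. They cover counting error only, as PCR reads without molecular identifiers are not independent molecules.

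Levels are given per transcript length, in TPM per 1000000 protein-coding TPM, so that the protein-coding genes of each cell have the same total. On this scale, the 90 members together took a median of 1.70% of the protein-coding level in A375 cells and 1.93% in Jurkat cells with kit #634413. With kit #634444, the medians were 1.53% in A375 and 2.16% in Jurkat. The sums ranged from 1.34% to 2.02% and from 1.39% to 2.62% with kit #634413, and from 0.836% to 1.94% and from 1.69% to 2.64% with kit #634444. A375 cells thus lay lower in the middle but overlapped with Jurkat cells, and 3 of 15 and 0 of 16 A375 cells exceeded the Jurkat median. A share of this kind cannot tell fewer transcripts of the members from more transcripts of other genes.

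The complexes differed in how far the 2 lines stood apart. Complex I took a median of 0.524% (0.369% to 0.600%) in A375 and 0.751% (0.390% to 1.06%) in Jurkat with kit #634413, and 0.484% (0.362% to 0.624%) and 0.742% (0.524% to 0.888%) with kit #634444. No A375 cell of either kit reached the Jurkat median, which gave ratios of medians of 0.697 and 0.652, yet the ranges of the lines overlapped. The ATP synthase took 0.484% and 0.549% with kit #634413 and 0.438% and 0.669% with kit #634444, in A375 and Jurkat in turn. For complex III, the A375 medians were 0.162% (kit #634413) and 0.165% (kit #634444), below the Jurkat medians of 0.184% and 0.211%. Complex IV had the higher median in A375 with kit #634413 (0.462% against 0.423%) and the lower one with kit #634444 (0.400% against 0.525%), so on this scale its direction turned with the kit. As shares of counts, its median was lower in A375 with both kits, at 0.151% against 0.159% and 0.127% against 0.184%. The 3 complex II genes had medians of between 0.0278% and 0.0300% in all 4 groups, the smallest sum of the 5 complexes. Single cells ranged from 0.00051% to 0.0721%. As shares of counts, the complex II median was higher in A375 with both kits, at 0.0295% against 0.0157% and 0.0276% against 0.0156%, with overlapping cells. The likeness of the lines thus held for TPM only. SDHA, the flavin subunit of this complex, is not among the members.

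**Figure D1:**
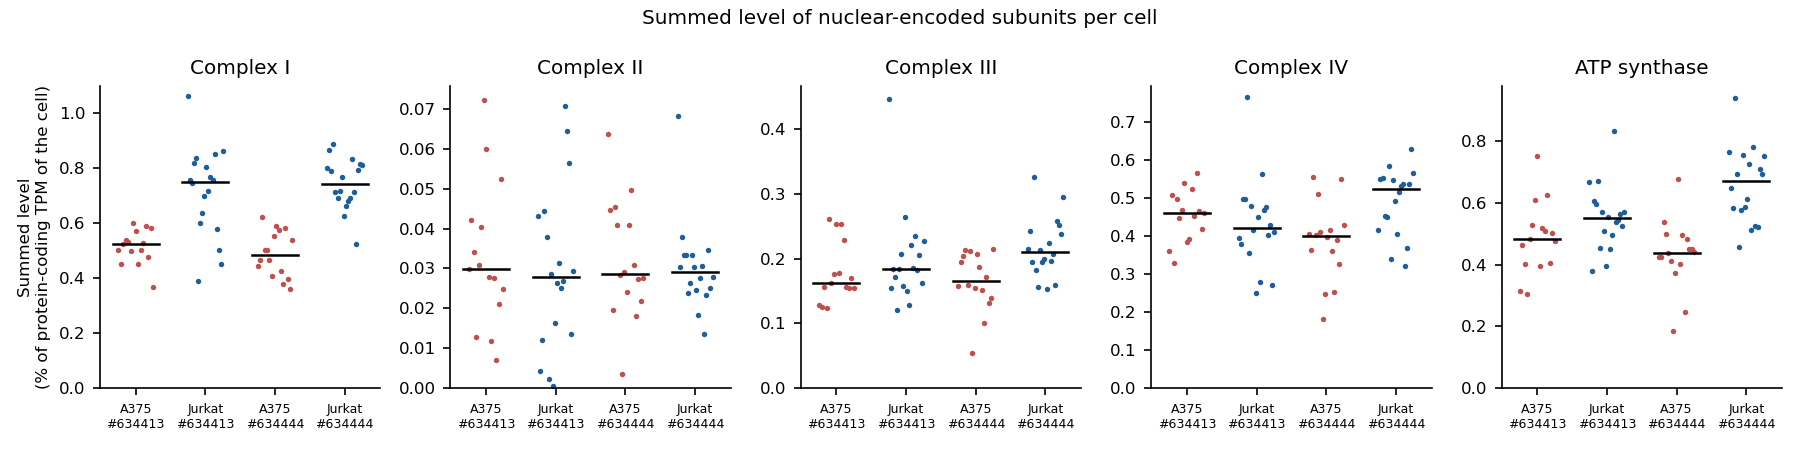
Summed level of the member genes of each complex in every cell, in percent of the protein-coding TPM of that cell, for A375 (red) and Jurkat (blue) and both kits. Points are cells and black lines are medians. All A375 cells lie below the Jurkat median of the same kit for complex I, while the medians of complex II lie between 0.0278% and 0.0300%.

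The order of the 90 genes by median level was much alike in all groups. Spearman's rho across the 90 genes was 0.829 and 0.887 between the lines with kits #634413 and #634444, and 0.947 and 0.912 between the kits in A375 and Jurkat. These values describe the genes, which are not independent replicates and which share transcript lengths and mapping. The cytochrome c oxidase subunit gene COX7C had the highest median of all members in 3 of the 4 groups, at 1581 and 1414 in A375 with kits #634413 and #634444 and at 1332 in Jurkat with kit #634444. In Jurkat with kit #634413, COX6C stood first with 1248 and COX7C had 708. COX4I1, the common form of subunit 4 of complex IV, had medians between 601 and 880. Within complex I, the accessory subunit NDUFS5 had the highest median in every group, between 342 and 1166, followed by NDUFB7 in A375 (472 and 298) and NDUFB10 in Jurkat (712 and 506). UQCRH, the hinge protein of complex III, led that complex in A375 with 624 and 590, and UQCRQ led it in Jurkat with 380 and 473, close to UQCRH at 361 and 413. UQCRB came after UQCRH in A375 with kit #634413, at 336. The iron-sulfur subunit SDHB led complex II in all 4 groups with medians between 170 and 215. In the ATP synthase, the inhibitor ATP5IF1 led in 3 groups with medians of 707, 838 and 831, and the small membrane subunit ATP5MK led in A375 with kit #634444 with 615, before ATP5ME with 543 and ATP5IF1 with 474.

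**Figure D2:**
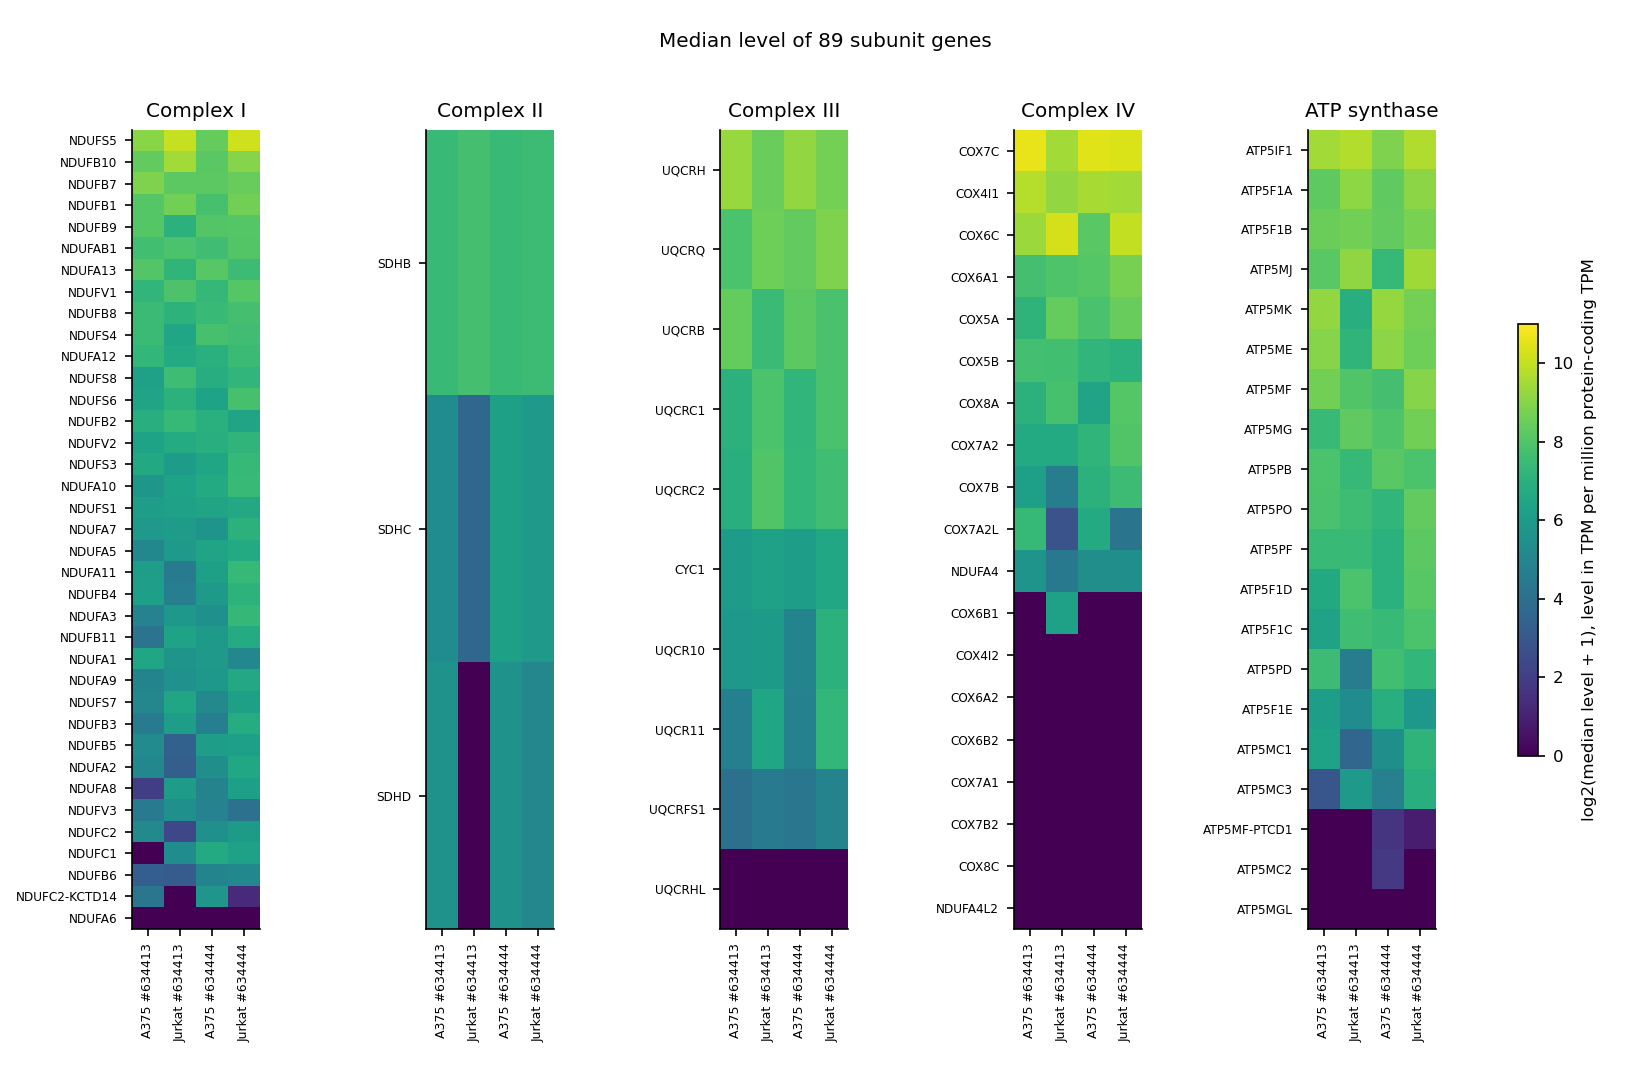
Median level of 89 of the 90 members in the 4 groups, as log2(median level + 1), with the level in TPM per 1000000 protein-coding TPM, and with genes ordered within each complex. COX7C, COX4I1, COX6C and NDUFS5 are among the brightest rows, and the tissue-restricted forms at the foot of complex IV have a median of 0.

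The comparison of the cell lines asks which subunits differ between the melanoma and the T cell background, with the kits as separate sets of cells. Differences are log2 fold changes of A375 over Jurkat fitted to gene counts with TMM scaling. With kit #634413, 78 members had enough counts to be compared, and 4 of them were at least 2-fold higher and 23 at least 2-fold lower in A375. Over all 11126 genes compared, 27.4% were at least 2-fold higher and 19.9% at least 2-fold lower, against 5.13% and 29.5% of the members. With kit #634444, 80 members were compared, and 4 were at least 2-fold higher and 24 at least 2-fold lower. The shares over all 12145 genes were 26.9% and 19.3%, against 5.0% and 30% of the members. Few members thus lay on the higher side in A375, which was the more common side for other genes, and somewhat more members than other genes lay on the lower side.

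The median log2 fold change was -0.49 over the members and 0.12 over all genes with kit #634413, and -0.66 and 0.10 with kit #634444. Relative to the shift of all genes, the members were therefore at -0.60 and -0.75. Of the members compared, 54 of 78 (69.2%) and 63 of 80 (78.8%) had a value below 0, against 46.4% and 46.9% of all genes. With log2(TPM + 1) in place of counts, the direction of the member median turned for kit #634413, where it was 0.12 with 37 of 78 members below 0, while the median of all genes moved to 0.67, and for kit #634444 the medians were -0.56 for members and 0.39 for all genes. By complex, 26 of 37 complex I genes, 7 of 9 complex III genes, 9 of 12 complex IV genes and 11 of 17 ATP synthase genes lay below 0 with kit #634413. With kit #634444, the counts were 31 of 38, 7 of 9, 10 of 11 and 14 of 19. Complex II was the exception among the members, as 2 of its 3 member genes were above 0 with each kit. SDHA, its subunit outside the members, was below 0 with both kits, at -0.439 and -0.615.

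Of the 77 members compared with both kits, 3 were at least 2-fold higher and 13 at least 2-fold lower in A375 each time. These are 3.9% and 16.9% of the members, and the same was true of 19.5% and 13.7% of the 10900 genes compared with both kits. A value below 0 with both kits was found for 52 members (67.5%), against 38.5% of all genes, and 14 members were above 0 with both. The 11 other members had opposite signs, and none of the members was at least 2-fold higher with one kit and at least 2-fold lower with the other. With all deposited cells, 21 members were lower with both kits, and with log2(TPM + 1) only 6 were. The higher genes included COX7A2L and SDHC. The 13 lower genes were NDUFA8, NDUFB3, NDUFB10, NDUFS5, NDUFS6 and NDUFS8 of complex I, UQCR10 and UQCR11 of complex III, COX6C of complex IV, and ATP5F1A, ATP5F1D, ATP5MC3 and ATP5MJ of the ATP synthase.

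**Figure D3:**
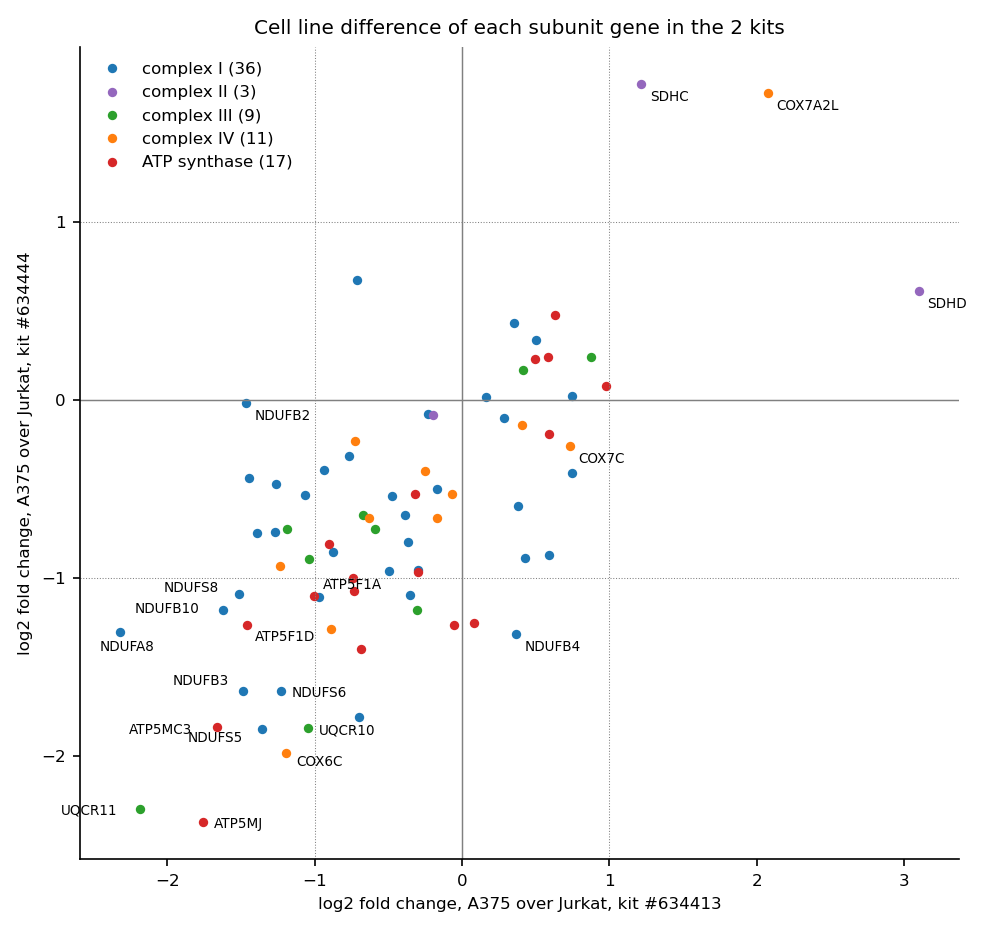
Log2 fold change of A375 over Jurkat for 76 of the 77 members compared with both kits, with kit #634413 on the horizontal and kit #634444 on the vertical axis, coloured by complex. Dotted lines mark 2-fold. The 13 members in the lower left corner and COX7A2L and SDHC in the upper right corner passed 2-fold with both kits.

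In complex I, the catalytic core carries the flavin, the iron-sulfur clusters and the quinone site. Of its genes, NDUFS8 (chr11:68030617-68036644, plus strand, GRCh38), which holds iron-sulfur clusters next to the membrane, was lower in A375. The lowest, median and highest levels with kit #634413 were 0, 77 and 154 in A375 and 0, 194 and 1064 in Jurkat. With kit #634444, they were 15.7, 115 and 245 in A375 and 22.6, 152 and 568 in Jurkat. None of 15 and 3 of 16 A375 cells lay above the Jurkat median, and the ranges overlapped (log2 fold changes of -1.51 and -1.09). NDUFV1, the flavin subunit, and NDUFS7, which holds the last iron-sulfur cluster, passed 2-fold with kit #634413 only, at -1.07 and -1.26 against -0.53 and -0.47 with kit #634444. Within 2-fold stayed NDUFS1 at 0.16 and 0.02, NDUFS3 at -0.50 and -0.96, and NDUFV2 at -0.94 and -0.39. NDUFS8, NDUFV1, NDUFS7, NDUFS3 and NDUFV2 were thus lower in A375 with both kits, and of these NDUFS8 alone passed 2-fold each time.

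Among the accessory subunits of complex I, NDUFS5 (chr1:39026318-39034636, plus strand), a small protein of the intermembrane side, was the most abundant. Its level with kit #634413 was 163 at the lowest, 521 at the median and 1052 at the highest in A375, and 413, 1035 and 1944 in Jurkat. With kit #634444, the values were 105, 342 and 667 in A375 and 478, 1166 and 1555 in Jurkat. There was little overlap with kit #634444, where 14 of 16 A375 cells were below every Jurkat cell. With kit #634413, 5 of 15 were. The log2 fold changes were -1.35 and -1.85, from 138 [132, 145; 95% CI] against 377 [367, 388; 95% CI] summed counts per 1000000 protein-coding counts with kit #634413 and 92 [86.3, 98.0; 95% CI] against 341 [330, 353; 95% CI] with kit #634444.

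NDUFB10 (chr16:1959538-1961975, plus strand), an accessory subunit of the membrane arm, had a median of 330 in A375 (25 to 451) and 712 in Jurkat (72.9 to 1411) with kit #634413. With kit #634444, its median was 294 in A375 (60.6 to 600) and 506 in Jurkat (157 to 1366). None of 15 and 1 of 16 A375 cells lay above the Jurkat median, with log2 fold changes of -1.62 and -1.18. For NDUFS6 (chr5:1801407-1816048, plus strand), a zinc-binding subunit of the peripheral arm, the medians were 84.8 (17.6 to 192) and 134 (0 to 518) with kit #634413 and 82.8 (0 to 186) and 225 (70.5 to 424) with kit #634444, in A375 and Jurkat in turn. The A375 cells above the Jurkat median numbered 1 of 15 and 0 of 16, with log2 fold changes of -1.23 and -1.64.

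NDUFA8 (chr9:122144058-122159779, minus strand) and NDUFB3 (chr2:201071433-201085750, plus strand), both accessory subunits, were detected more unevenly. NDUFA8 had a median of 3.15 in A375 (0 to 81.2) and 64.2 in Jurkat (0 to 378) with kit #634413, and 29 (0 to 104) and 73.0 (0 to 246) with kit #634444. For NDUFB3, the A375 medians were 21.8 (0 to 121) with kit #634413 and 25.8 (0 to 203) with kit #634444, below the Jurkat medians of 70.5 (0 to 275) and 110 (0 to 385). Cells of both lines had no count of either gene, so the ranges overlapped from 0 upwards. The log2 fold changes were -2.32 and -1.31 for NDUFA8 and -1.49 and -1.64 for NDUFB3. NDUFA8 rested on 130 counts in all A375 cells with kit #634413, 10.5 per 1000000 [8.77, 12.5; 95% CI], against 63.1 [58.8, 67.5; 95% CI] in Jurkat.

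Complex II links the citric acid cycle to the electron chain, and of its subunits SDHB carries iron-sulfur clusters while SDHC and SDHD anchor it in the membrane. SDHB (chr1:17018664-17054032, minus strand) had medians of 171 (0 to 526) in A375 and 215 (0 to 699) in Jurkat with kit #634413 and of 170 (0 to 333) and 185 (49.5 to 343) with kit #634444. Its log2 fold changes were -0.20 and -0.09, and 7 of 15 and 6 of 16 A375 cells lay above the Jurkat median. Both anchors had higher fitted values in A375. SDHC (chr1:161314381-161363206, plus strand) was at 4.16, 39.6 and 285 (lowest, median and highest) in A375 and at 0, 11.7 and 165 in Jurkat with kit #634413, and at 7.92, 76 and 210 in A375 and 0, 61.4 and 325 in Jurkat with kit #634444. The cells overlapped widely on this scale, although the log2 fold changes of counts were 1.22 and 1.78. Transcript SDHC-202 of 13566 bases held 74.4% and 71.8% of the SDHC counts in A375 and 57.1% and 42% in Jurkat, and a count on a long transcript adds less to TPM than a count on a short one.

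SDHD (chr11:112086824-112120016, plus strand) differed with the kit. With kit #634413, 11 of 15 A375 cells but only 4 of 18 Jurkat cells had a count, with medians of 47.7 (0 to 150) and 0 (0 to 81.0) and a log2 fold change of 3.10. With kit #634444, 15 of 16 A375 and 14 of 18 Jurkat cells had a count, with medians of 47.5 (0 to 181) and 33.3 (0 to 111) and a log2 fold change of 0.61. The summed counts per 1000000 were 33 [29.9, 36.4; 95% CI] and 30.9 [27.6, 34.4; 95% CI] in A375, whereas in Jurkat they were 3.57 [2.62, 4.74; 95% CI] with kit #634413 and 22.2 [19.4, 25.3; 95% CI] with kit #634444. It was thus the Jurkat value that moved between the kits.

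In complex III, UQCR11 (chr19:1597169-1605473, minus strand) and UQCR10 (chr22:29767369-29770413, plus strand), the smallest accessory subunits, were lower in A375. UQCR11 had a median of 26.1 (0 to 110) in A375 and 89.2 (0 to 783) in Jurkat with kit #634413, and of 27.2 (0 to 151) and 153 (0 to 463) with kit #634444. A375 cells above the Jurkat median numbered 1 of 15 and 0 of 16, and the log2 fold changes were -2.18 and -2.30. The counts per 1000000 were 14.1 [12, 16.3; 95% CI] against 60 [55.8, 64.3; 95% CI] with kit #634413 and 16.8 [14.4, 19.5; 95% CI] against 92.6 [86.9, 98.7; 95% CI] with kit #634444.

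UQCR10 showed the same direction with less separation. Its medians were 56.5 (0 to 194) in A375 and 62 (0 to 383) in Jurkat with kit #634413 and 29.9 (0 to 132) and 134 (0 to 322) with kit #634444. With kit #634413, 6 of 15 A375 cells lay above the Jurkat median, and with kit #634444 none of 16 did (log2 fold changes of -1.04 and -1.84). The catalytic subunits of this complex made by nuclear genes, UQCRFS1 (the Rieske iron-sulfur protein) and CYC1 (cytochrome c1), had lower counts per 1000000 in A375 as well. UQCRFS1 had 42.9 [39.3, 46.7; 95% CI] against 83.8 [78.9, 88.9; 95% CI] and 54.1 [49.8, 58.8; 95% CI] against 93.3 [87.6, 99.4; 95% CI]. CYC1 had 60.2 [55.9, 64.7; 95% CI] against 92.1 [87, 97.5; 95% CI] and 60.7 [56.1, 65.6; 95% CI] against 106 [100, 113; 95% CI].

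In complex IV, the accessory subunit gene COX6C was lower in A375. Its level with kit #634413 was 112 at the lowest, 658 at the median and 957 at the highest in A375 and 192, 1248 and 2602 in Jurkat. With kit #634444, the values were 125, 295 and 432 in A375 and 402, 1010 and 1610 in Jurkat. No A375 cell reached the Jurkat median, and with kit #634444 13 of 16 A375 cells were below every Jurkat cell. Its log2 fold changes came to -1.19 and -1.99. Only 13.6% of the COX6C counts were on transcripts of the protein-coding class, and COX6C-207, annotated as a target of nonsense-mediated decay, held 68.7%. With counts on protein-coding transcripts alone, the log2 fold change was -3.05 with kit #634413 but turned to 0.64 with kit #634444, so the direction held for the gene sum only.

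The direction of COX7C and COX4I1, also abundant subunit genes of this complex, changed with the kit. Most complex IV genes compared lay below 0 with each kit (9 of 12 and 10 of 11). COX7C (chr5:86617928-86620962, plus strand) had levels of 612, 1581 and 2363 in A375 and 78.3, 708 and 1569 in Jurkat with kit #634413. With kit #634444, it had 535, 1414 and 2506 in A375 and 612, 1332 and 2408 in Jurkat. Its log2 fold change was 0.73 with the first kit and -0.26 with the second, and the ranges overlapped each time. COX4I1 (chr16:85798633-85807068, plus strand), at 0.40 and -0.14, turned sign in the same way.

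COX7A2L (chr2:42333546-42425088, minus strand), which joins complexes III and IV into supercomplexes, was higher in A375. With kit #634413, its level was 85.3, 163 and 422 in A375 and 0, 6.03 and 208 in Jurkat. With kit #634444, it was 0, 104 and 196 in A375 and 0, 18 and 97.3 in Jurkat. All 15 and 15 of 16 A375 cells lay above the Jurkat median, and 5 and 9 lay above every Jurkat cell. The log2 fold changes were 2.07 and 1.73, from 89.7 [84.5, 95.1; 95% CI] against 23 [20.5, 25.7; 95% CI] counts per 1000000 and 61.6 [56.9, 66.5; 95% CI] against 21.6 [18.9, 24.6; 95% CI]. The split by transcript differed between the groups, as COX7A2L-208, which has no defined coding sequence, held 45.9% and 19.7% of the COX7A2L counts in A375 and 30.6% and 6.28% in Jurkat, with kits #634413 and #634444. On protein-coding transcripts alone, the log2 fold changes were 1.48 and 1.46.

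In the ATP synthase, the lower genes came from the catalytic head, the central stalk, the rotor ring and the membrane part. ATP5MJ (chr14:103912288-103928269, minus strand), a small membrane subunit, had levels of 30.6, 290 and 585 in A375 and 260, 581 and 1459 in Jurkat with kit #634413. With kit #634444, it had 0, 166 and 227 in A375 and 190, 697 and 1223 in Jurkat. With that kit, none of 16 A375 cells reached the Jurkat median, 11 were below every Jurkat cell and 17 of 18 Jurkat cells were above every A375 cell. In log2 terms, the fold changes were -1.76 and -2.37, and the counts per 1000000 were 78.4 [73.6, 83.5; 95% CI] against 265 [256, 274; 95% CI] and 54.3 [49.9, 59.0; 95% CI] against 274 [264, 284; 95% CI]. Transcript ATP5MJ-201, of the protein-coding class, held between 51.2% and 93.9% of the ATP5MJ counts in the 4 groups.

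ATP5F1A (chr18:46080248-46104334, minus strand) codes for the alpha subunit of the catalytic head. Its medians were 305 (158 to 1098) in A375 and 563 (269 to 1883) in Jurkat with kit #634413 and 314 (195 to 588) and 540 (146 to 1036) with kit #634444. The log2 fold changes of -1.0 and -1.1 were close to the threshold, with 3 of 15 and 1 of 16 A375 cells above the Jurkat median. ATP5F1B, the beta subunit of the same head, stayed within 2-fold at -0.32 and -0.53. ATP5F1D (chr19:1241746-1244825, plus strand), the delta subunit of the central stalk, had medians of 101 (0 to 477) and 235 (0 to 638) with kit #634413 and of 129 (22.1 to 337) and 280 (18.7 to 675) with kit #634444, with log2 fold changes of -1.46 and -1.26.

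**Figure D4:**
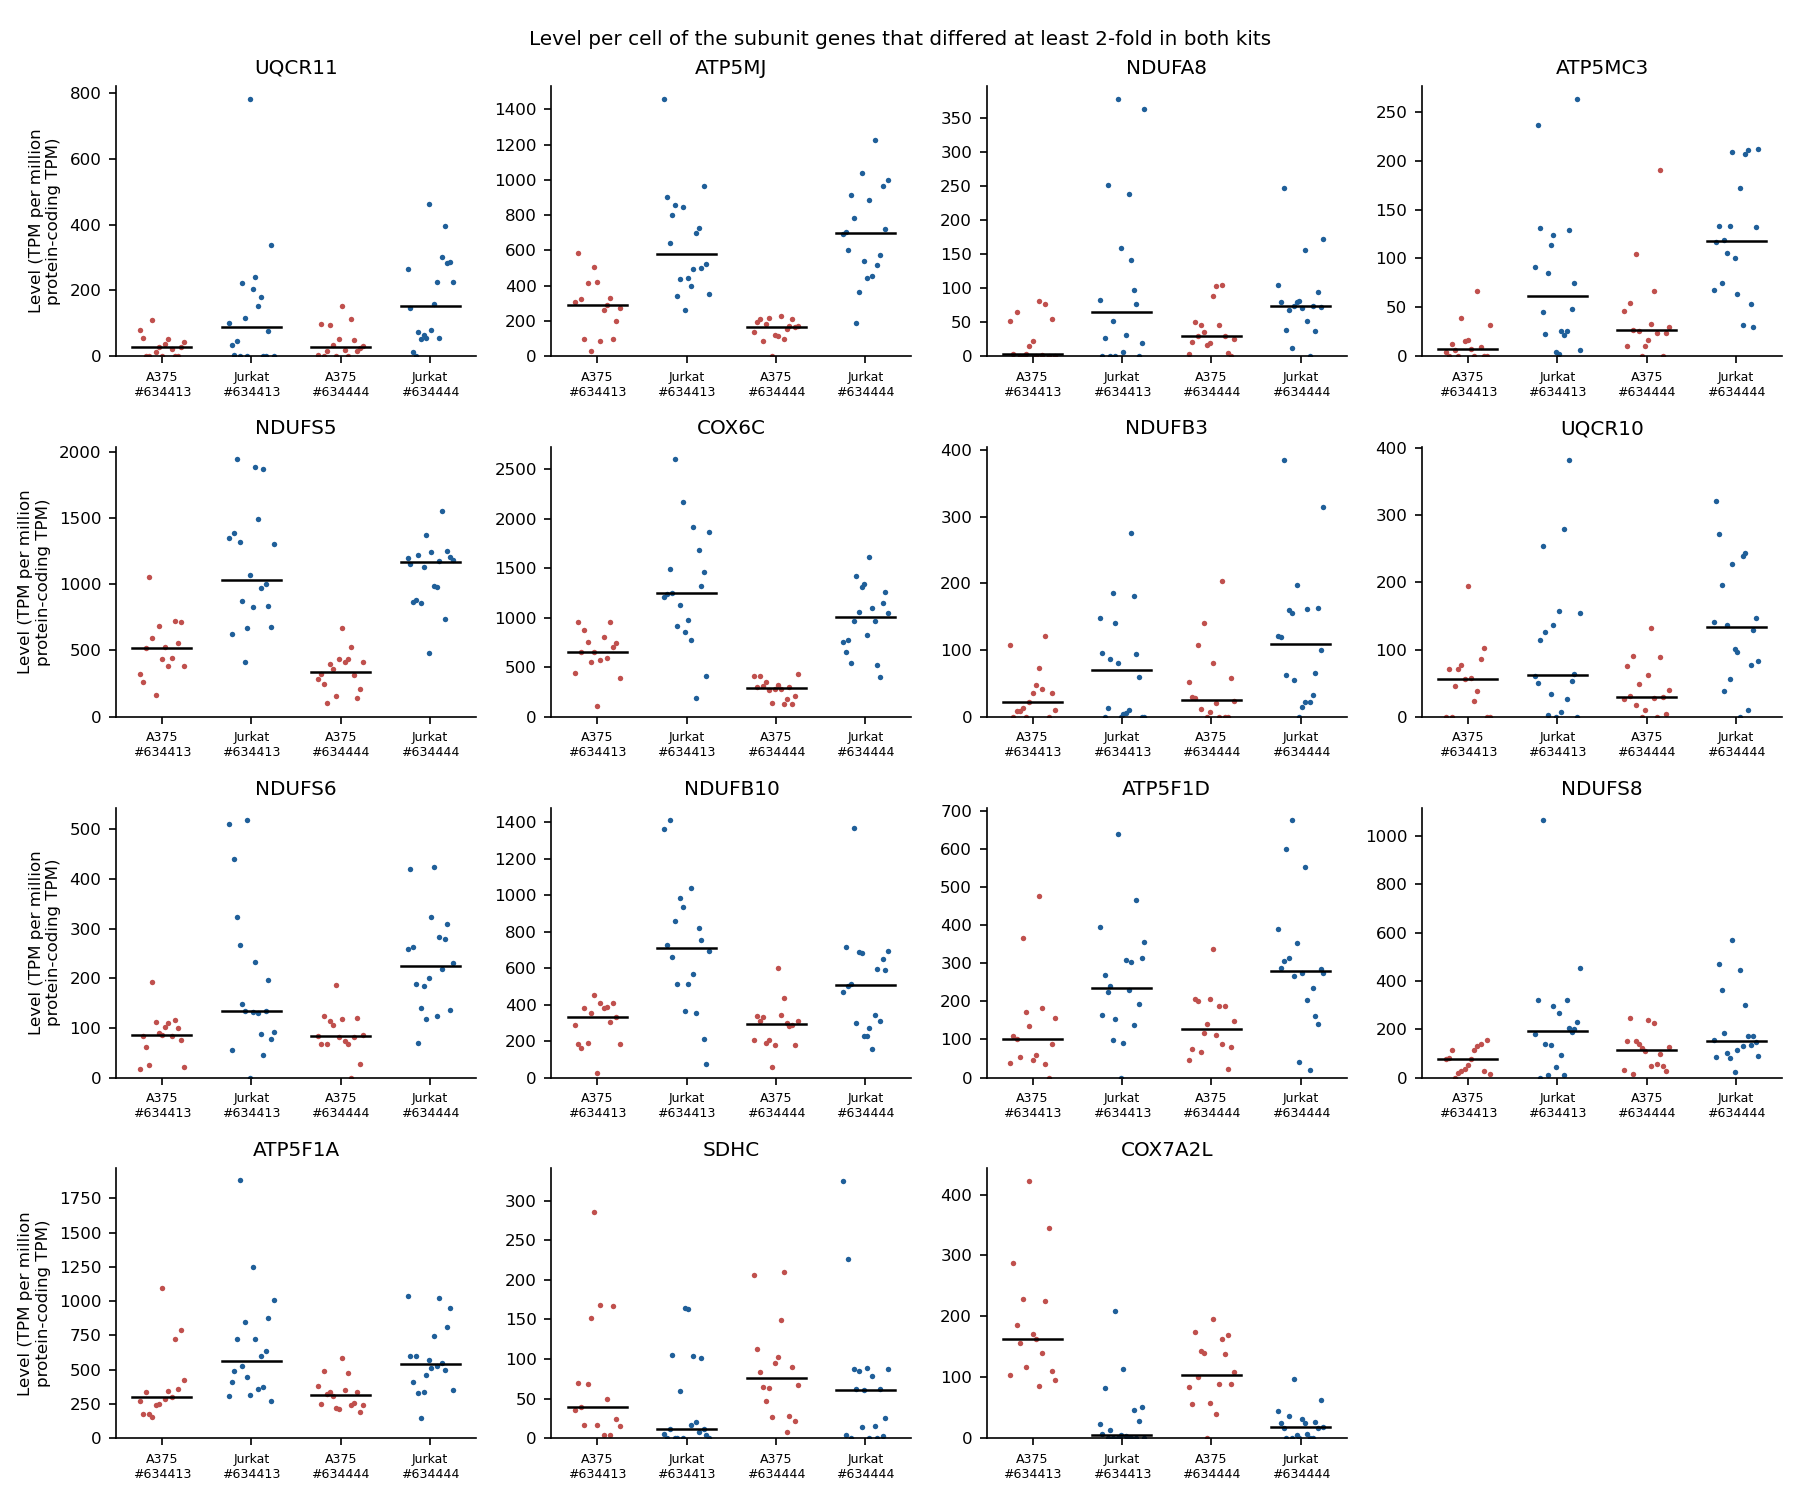
Level per cell, in TPM per 1000000 protein-coding TPM on a linear axis, of 15 of the 16 members that differed at least 2-fold between the lines with both kits. Points are cells and black lines are medians. NDUFS5, COX6C and ATP5MJ are separated most with kit #634444, and COX7A2L lies higher in A375 with both kits.

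The promoters of members that moved in either direction are shown to set their letters beside the values. RefSeq promoter windows of 300 bases, 250 before to 50 after the start site, were matched by symbol for 70 of the 90 members (83 windows). Each window was searched on both strands for GCGCATGC (NRF1), CCGGAAG (ETS factors such as GABP) and AANATGGC (YY1), factors known for nuclear genes of the respiratory chain. Stretches from 150 bases before to 30 after the start are printed 5′ to 3′ on the gene's strand (GRCh38.p14), with a match of these motifs in capitals. ATP5MJ (chr14:103921500-103921679) and NDUFB10 (chr16:1959388-1959567) were lower in A375 with both kits and had no match. ATP5F1A was also lower, and 1 of its start sites (chr18:46098267-46098446) holds an ETS and a YY1 match. COX7A2L was higher, with a YY1 match at 1 start site (chr2:42368928-42369107). UQCRH (chr1:46303548-46303727) and COX4I1 (chr16:85799545-85799724), both within 2-fold, have an ETS match each. The printed genes are a choice and do not stand for the other members. Of the other members lower with both kits, NDUFA8 and NDUFS6 have an NRF1 match in their windows. NDUFS6, NDUFS8 and UQCR10 have a YY1 match, UQCR11 has an ETS match and NDUFB3 has none. NDUFS5, COX6C, ATP5F1D and ATP5MC3 have no window.
ATP5MJ: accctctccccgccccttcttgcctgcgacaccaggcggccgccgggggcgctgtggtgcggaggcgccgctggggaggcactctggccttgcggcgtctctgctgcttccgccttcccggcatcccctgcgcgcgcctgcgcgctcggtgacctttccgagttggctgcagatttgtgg
NDUFB10: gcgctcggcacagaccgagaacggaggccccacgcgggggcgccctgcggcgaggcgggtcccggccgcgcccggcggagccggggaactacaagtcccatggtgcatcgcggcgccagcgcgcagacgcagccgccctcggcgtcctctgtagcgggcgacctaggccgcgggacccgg
ATP5F1A: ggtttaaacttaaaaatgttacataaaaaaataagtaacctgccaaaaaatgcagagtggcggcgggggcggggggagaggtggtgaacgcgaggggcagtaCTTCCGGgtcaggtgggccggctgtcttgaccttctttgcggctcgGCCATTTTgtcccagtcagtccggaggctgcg
COX7A2L: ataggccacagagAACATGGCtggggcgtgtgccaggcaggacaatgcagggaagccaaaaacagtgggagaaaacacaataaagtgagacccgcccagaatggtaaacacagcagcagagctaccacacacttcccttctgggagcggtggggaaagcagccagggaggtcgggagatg
UQCRH: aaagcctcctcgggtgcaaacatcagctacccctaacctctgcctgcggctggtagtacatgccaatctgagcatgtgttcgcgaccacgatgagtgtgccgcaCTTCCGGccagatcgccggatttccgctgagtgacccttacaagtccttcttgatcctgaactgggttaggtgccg
COX4I1: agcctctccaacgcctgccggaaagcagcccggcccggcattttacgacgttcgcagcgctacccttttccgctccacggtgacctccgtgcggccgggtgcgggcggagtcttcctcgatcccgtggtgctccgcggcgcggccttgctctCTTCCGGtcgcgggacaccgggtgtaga

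Over the 83 member windows, the NRF1 letters were found in 18.1%, the ETS letters in 26.5% and the YY1 letters in 33.7%. Of all 35116 windows, 3.05%, 10.3% and 6.58% held them, and of the 13345 windows of other protein-coding genes compared here, 4.97%, 17.9% and 9.7% did. At least 1 of the 3 was present in 56.6% of the member windows, against 18% of all windows and 29% of those of the other genes compared. The GC box GGGCGGG was present in 31.3% of the member windows and in 50.8% of those of the other genes compared, CCAAT in 34.9% and 35.3%, and TATAAA in 8.43% and 6.11%. Over all windows, the shares of these were 33.1%, 34.6% and 11.5%. A match is a description of the letters and says nothing of binding in these cells.

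The tissue-restricted forms were compared with the common forms as shares of the summed counts of each paralog group. Of the restricted forms of complex IV, 4 were not detected. COX4I2 (lung), COX6A2 (heart and muscle), COX7A1 (heart and muscle) and COX8C (testis) had 0 counts in all 67 cells. With COX4I1 at between 3154 and 4644 counts per group, 0 counts of COX4I2 allow a share of at most 0.0951%. The limits were at most 0.316% for COX6A2, 0.336% for COX7A1 and 1.17% for COX8C. The forms COX6B2, COX7B2, UQCRHL and ATP5MGL had a few counts, and these 8 genes had too few counts for any fold change. The limits cover counting error only and concern the summed cells of a group, not each cell.

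Where a restricted form was counted, it was mostly in A375. COX7B2, a testis form, had 55 counts in 2 of 15 A375 cells with kit #634413, a share of 13.6% [10.4, 17.3; 95% CI], and 14 counts in 3 of 16 cells with kit #634444, 2.70% [1.49, 4.49; 95% CI]. No Jurkat cell had a count of it, which allows shares of up to 0.481% and 0.542%. These shares are of the counts of COX7B2 and COX7B, and the canonical transcript of COX7B is not among the targets. NDUFA4L2, a paralog of NDUFA4 known to be induced by low oxygen, had 149 counts in 7 of 15 A375 cells with kit #634413 and 36 counts in 4 of 16 with kit #634444, with shares of 25.2% [21.7, 28.9; 95% CI] and 8.96% [6.35, 12.2; 95% CI]. In Jurkat it had 0 counts with kit #634413 and 24 counts in 3 of 18 cells with kit #634444, a share of 3.97% [2.56, 5.85; 95% CI]. In all of these cases a few cells held the counts and the median cell held 0. Over all cells used, NDUFA4L2-207, which has no defined coding sequence, held 62.68% of the NDUFA4L2 counts. The NDUFA4L2 shares are thus of the gene sum, and the part of this transcript in them was not tested. COX6B2, another testis form, was at 16 counts in 6 of 16 A375 cells with kit #634444, a share of 24.6% [14.5, 36.4; 95% CI] of its pair, and at 1 or 2 counts in each other group. The common form COX6B1 itself had few counts, between 49 and 315 per group. Its canonical transcript is not among the targets, and the part of this in its counts was not tested. Its level was 0 in the median cell of 3 groups.

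The COX7A group differed most between the lines. COX7A2L held a mean of 74.8% ± 14.8 (SD over 15 cells) of its counts in A375 and 33% ± 37.7 (SD over 12 cells) in Jurkat with kit #634413, and 61.5% ± 18.6 (SD over 15 cells) and 21.6% ± 21.5 (SD over 17 cells) with kit #634444. Cells with under 10 counts in the group were not used for these means. Over the summed counts, the shares were 75.0% [72.7, 77.1; 95% CI] and 32.8% [29.7, 35.9; 95% CI] with kit #634413 and 59.4% [56.4, 62.3; 95% CI] and 25.3% [22.5, 28.3; 95% CI] with kit #634444. The remaining counts were all of COX7A2, the common subunit form, which was at -0.63 and -0.66 on the log2 scale in A375 over Jurkat. The canonical transcript of COX7A2 is not among the targets, and the part of this and of COX7A2L-208 in the shares was not tested. A share within a group of paralogs does not depend on the scaling of the libraries.

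**Figure D5:**
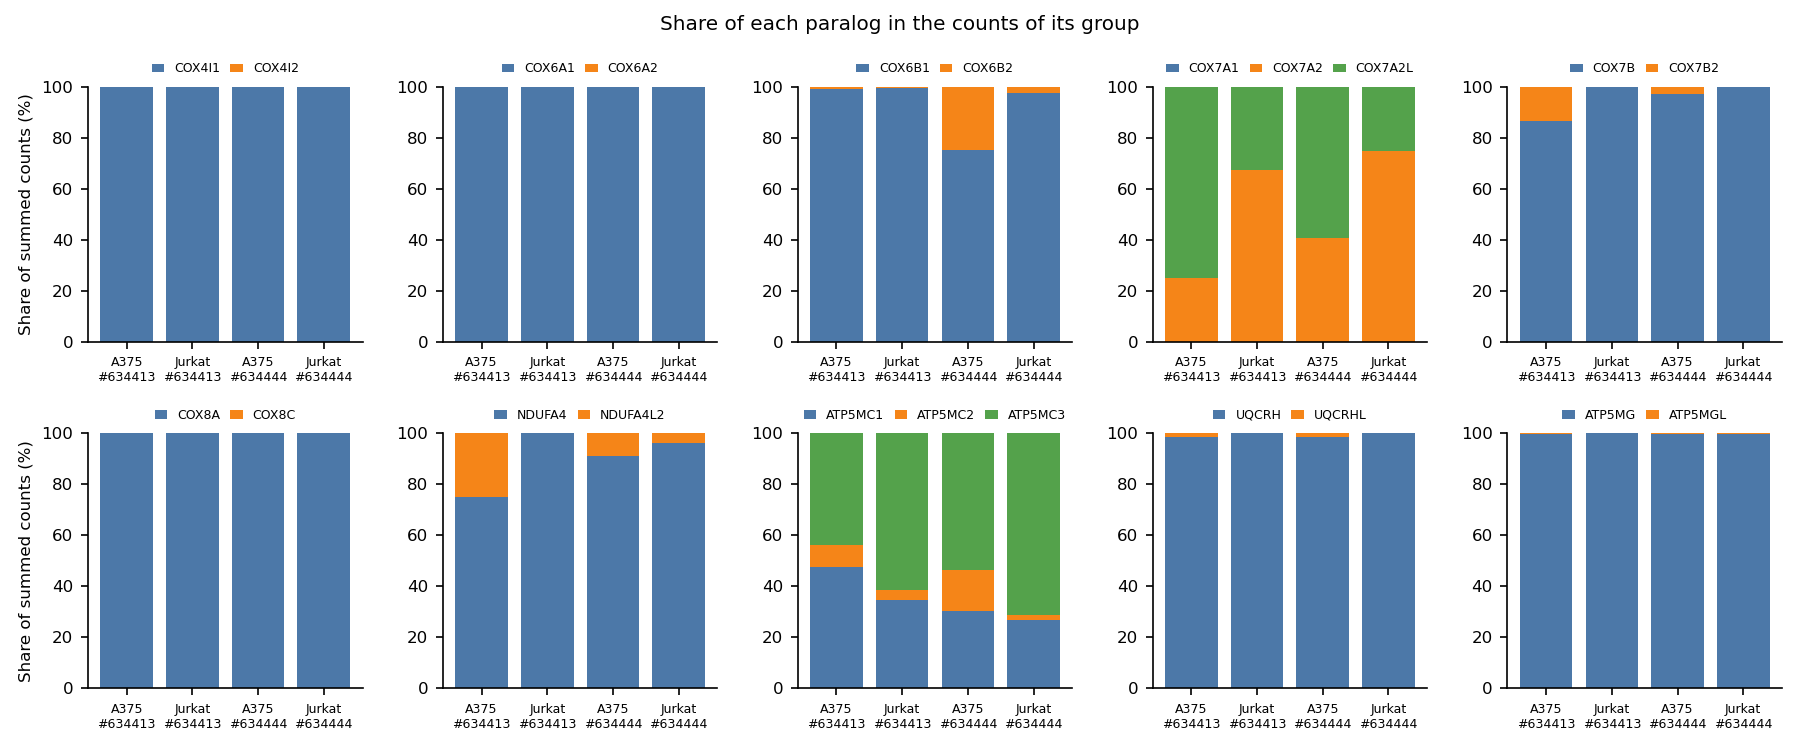
Share of each paralog in the summed counts of its group, in percent, for the 4 groups of cells. The restricted forms COX4I2, COX6A2, COX7A1 and COX8C have no count, while COX7A2L takes 75.0% and 59.4% of the COX7A counts in A375 against 32.8% and 25.3% in Jurkat.

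Subunit c, which forms the rotor ring of the ATP synthase, is made from 3 genes, ATP5MC1, ATP5MC2 and ATP5MC3, that code for the same mature protein with different import sequences. ATP5MC3 (chr2:175176258-175181710, minus strand) was lower in A375. Its medians were 6.79 (0 to 66.2) in A375 and 61.7 (2.25 to 264) in Jurkat with kit #634413 and 26.3 (0 to 191) and 118 (29.7 to 213) with kit #634444. Only 1 A375 cell of each kit lay above the Jurkat median, 5 of 15 and 9 of 16 lay below every Jurkat cell, and the log2 fold changes were -1.66 and -1.84. Its share of the counts of the 3 genes was 43.8% [39.7, 48; 95% CI] in A375 and 61.4% [58.6, 64.2; 95% CI] in Jurkat with kit #634413, and 53.7% [49.1, 58.3; 95% CI] and 71.1% [68.6, 73.5; 95% CI] with kit #634444. ATP5MC1 held 47.7% [43.5, 51.9; 95% CI] and 34.6% [31.9, 37.4; 95% CI], then 30.4% [26.3, 34.8; 95% CI] and 26.6% [24.3, 29.1; 95% CI]. ATP5MC2 was counted little, with 203 counts in all cells, of which 9.05% were on protein-coding transcripts and none on its canonical transcript, so its share of between 2.30% and 15.9% is uncertain, as is its log2 fold change of 1.78 in A375 over Jurkat with kit #634444, which put it among the 4 members on the higher side.

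The ends of the 3 coding sequences show how alike these transcripts are for assigning reads. The last 90 bases are given below from the reference transcripts, with capitals at the 25 positions where the 3 genes do not all carry the same base. Over the last 228 bases, ATP5MC1 and ATP5MC2 share 89.0% of bases, and ATP5MC3 shares 81.1% with each of them.
ATP5MC1: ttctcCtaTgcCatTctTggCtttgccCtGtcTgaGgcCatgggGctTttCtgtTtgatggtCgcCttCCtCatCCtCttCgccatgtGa
ATP5MC2: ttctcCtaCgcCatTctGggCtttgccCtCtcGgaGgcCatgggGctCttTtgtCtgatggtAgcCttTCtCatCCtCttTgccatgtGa
ATP5MC3: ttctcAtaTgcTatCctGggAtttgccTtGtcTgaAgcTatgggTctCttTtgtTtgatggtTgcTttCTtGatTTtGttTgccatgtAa

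UQCRHL (chr1:15807169-15809348, minus strand) is a near copy of UQCRH (chr1:46303698-46316776, plus strand). Their coding sequences share 272 of 276 bases (98.6%), and the first 90 bases below do not differ at any position, hence no capitals.
UQCRH: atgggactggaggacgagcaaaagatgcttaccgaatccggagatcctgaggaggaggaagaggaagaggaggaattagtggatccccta
UQCRHL: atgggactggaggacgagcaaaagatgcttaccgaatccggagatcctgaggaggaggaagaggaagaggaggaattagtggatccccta
UQCRHL was given 39 and 34 counts in A375, 1.41% [0.999, 1.91; 95% CI] and 1.66% [1.2, 2.3; 95% CI] of the pair, and 2 and 1 counts in Jurkat. Reads from such stretches can be split between the copies, and the split was not tested. The ATP5MG copy ATP5MGL held at most 0.465% of its pair. More broadly, 185 annotated pseudogenes of 49 members held 0.289% of the counts of members and pseudogenes together.

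The comparison of the kits asks whether the reagents changed the picture of these genes. In A375, 81 members were compared, and 3 were at least 2-fold higher and 2 at least 2-fold lower with kit #634444, against 7.11% and 3.7% of the 12888 genes compared. The higher ones were NDUFB11 (log2 fold change of 1.04), NDUFC1 (1.02) and ATP5MC2 (1.54), and the lower ones were COX6C (-1.21) and NDUFA4L2 (-1.25). NDUFC1 had a count in 7 of 15 A375 cells with kit #634413 and in 15 of 16 with kit #634444, with medians of 0 (0 to 283) and 105 (0 to 228). NDUFB11, at medians of 17.3 (0 to 109) and 61.3 (0 to 215), overlapped between the kits as well.

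In Jurkat, 79 members were compared, and 4 were at least 2-fold higher and 3 at least 2-fold lower with kit #634444, against 7.79% and 5.28% of the 10109 genes compared. The higher ones were SDHD (2.70), NDUFB4 (1.68), ATP5PO (1.19) and NDUFA2 (1.02), and the lower ones were COX6B1 (-2.24), the readthrough gene NDUFC2-KCTD14 (-1.53) and NDUFB2 (-1.28). NDUFB4 (chr3:120596328-120602507, plus strand), an accessory subunit of complex I, had medians of 24.8 (0 to 211) and 136 (0 to 380). ATP5PO, the subunit that joins the head to the stator stalk, had medians of 194 (0 to 479) and 326 (41.3 to 822). The median over the members was -0.03 in A375 and 0.24 in Jurkat, against 0.03 and 0.01 over all genes. In Jurkat, 53 of 79 members lay above 0, against 5140 of 10109 genes. In A375, 40 of 81 did, against 6809 of 12888 genes. The members in Jurkat thus leaned to higher values with kit #634444, while the shares past 2-fold were near or below those of all genes in both lines. With log2(TPM + 1), by contrast, 27 of 79 members were at least 2-fold higher in Jurkat, against 1889 of 10109 genes.

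How far the line difference itself moved with the kit was described by the difference of the log2 fold changes, kit #634444 less kit #634413. Of 79 members, 4 differed by at least 2-fold upwards and 9 downwards, against 11.6% and 14.8% of the 11801 genes compared. Upwards were COX6B1 (1.64), NDUFB2 (1.43), NDUFC2-KCTD14 (1.39) and NDUFA8 (1.01). Downwards were, among others, SDHD (-2.49), NDUFB4 (-1.68), NDUFA2 (-1.45), ATP5MF (-1.35), NDUFA12 (-1.30), ATP5PO (-1.21), NDUFB9 (-1.15) and NDUFA3 (-1.12). NDUFB4, for example, was at 0.37 in A375 over Jurkat with kit #634413 and at -1.32 with kit #634444. The count of members was close to or below the background, and no test was made. With log2(TPM + 1), by contrast, 29 of 79 members differed downwards, against 2085 of 11801 genes.

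Since the libraries hold total RNA, the counts of the members were split by the class of transcript. Protein-coding transcripts held medians of 78.3% and 82.2% of the member counts in A375, kit #634413 first, and of 77.1% and 80.1% in Jurkat. Over all protein-coding genes, the medians were 79.6%, 80.8%, 77.6% and 81.6% in the same order. For all protein-coding genes, the retained intron medians were 8.76% and 8.53% in A375 and 9.14% and 7.58% in Jurkat, above those of the members in each group (7.13%, 5.32%, 5.89% and 5.67%). The medians for nonsense-mediated decay were 6.48%, 5.87%, 7.45% and 6.34% for all genes, below those of the members (8.82%, 6.43%, 9.81% and 7.98%). As a sum, the members thus lay close to all genes in the protein-coding class, lower in retained introns and higher in transcripts marked for decay. COX6C weighed heavily in the last class. Its transcript COX6C-207 held 1854.3 and 507.8 counts in A375 and 4280.7 and 1556.3 in Jurkat, kit #634413 first. COX6C-206, of the same class, held 117.0, 161.2, 369.3 and 1460.7 in the same order. Whether the other members were higher in this class without COX6C was not tested. Of the 90 members, 11 had more counts outside than on protein-coding transcripts, among them UQCRB with 40.7% and NDUFS7 with 30.4% on them. Among the members whose canonical transcript was not a target were COX6B1, COX7A2, COX7B and UQCRHL.

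Within a group, cells with more of one complex did not always have more of another. Pearson's r between the summed levels of 2 complexes was between -0.40 and 0.60 across the 15 A375 cells and between -0.15 and 0.58 across the 18 Jurkat cells with kit #634413, and between 0.08 and 0.85 across the 16 A375 cells and between 0.19 and 0.66 across the 18 Jurkat cells with kit #634444. The highest value was that of complex III with the ATP synthase in A375 with kit #634444. The points share the library and its depth, and the levels of a cell share 1 total, so these values describe the libraries. Members with a count numbered between 54 and 83 per cell, on a sum of between 764 and 12285 member counts. With kit #634413, the medians were 71 in A375 and 68 in Jurkat, and with kit #634444 77 and 76. Only 22 of the 90 members had a count in every Jurkat cell with kit #634413, against 50 with kit #634444. In A375, 42 and 48 did. The part of this uneven detection in the values of Jurkat with kit #634413 was not tested.

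Genes around the members were taken from a list of 61 assembly factors and other oxidative phosphorylation genes and of 14 regulators. Of the 59 assembly and other genes compared, 9 were at least 2-fold higher and 11 at least 2-fold lower in A375 with kit #634413, and 6 and 11 with kit #634444. Over all genes, 27.4% were higher and 19.9% lower with kit #634413 and 26.9% and 19.3% with kit #634444. The share of lower genes in this list was thus near that of all genes. Its share of higher genes was below that of all genes with both kits, as it was for the members. The median log2 fold changes of this list were -0.11 and -0.07, against 0.12 and 0.10 over all genes. Of the regulators, 4 of 13 were higher and 2 lower with kit #634413, and 5 of 14 and 1 with kit #634444. Past 2-fold in the same direction with both kits were TFB2M, a mitochondrial transcription factor (3.02 and 1.58), HIF1A, the oxygen-regulated transcription factor (1.54 and 1.76), MITF, a transcription factor of melanocytes that is also one of the melanoma markers (1.89 and 3.35), NDUFAF2 (1.03 and 1.32), SDHAF2 (1.11 and 1.52) and UQCC4 (1.11 and 1.33) on the higher side. On the lower side were MYC (-1.07 and -3.06), NDUFAF3 (-1.84 and -1.15) and SDHAF3 (-1.28 and -2.0). The complex I assembly factor NDUFAF2 had medians of 190 and 159 in A375 and 24.3 and 36.3 in Jurkat, whereas NDUFAF3, which acts in the same assembly, had 24.3 and 41.3 in A375 and 49.3 and 61 in Jurkat.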

How the data were processed

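The authors trimmed the reads, quantified Ensembl transcripts extended with spike sequences with Kallisto (0.43.1 per the submitters' processing notes, which also name STAR 2.5.3 and hg38) in stranded mode, and deposited, per cell, estimated counts and TPM for 200471 targets. The estimated counts deposited are expected counts that need not be whole and are not normalized, and the authors' TPM are scaled by effective length. No transcript of the mitochondrial chromosome is among the targets.

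Targets were matched to GENCODE v44 (195850 of 200206 transcripts) and summed per gene. Between 10.9% and 30.6% of the counts of a cell lay on targets of no gene, such as the rDNA repeat, and entered no comparison. Cells with at least 100000 protein-coding counts were used. Rounded sums were fitted with glmQLFit in edgeR 4.0.16 (R 4.3.3) with TMM, keeping the genes that reached 5 counts in 0.25 or more of the fitted cells. The design had named edgeR and permutation tests across cells. No p-value is given, because each library is 1 cell and no culture is named, and the 2-fold threshold was set after values had been seen.

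The genes named are the 5 members furthest past 2-fold in each direction between the lines, every member past 2-fold with both kits or between kits, all paralog groups, core genes of complex I, the 2 highest members of each complex, and members without counts. UQCRFS1, CYC1, ATP5F1B and the transcripts of COX6C were added after their values had been seen. Values of 1 member are not reported here and not drawn, though it is part of the counts and sums. The members and lists were chosen with earlier results of these data known. Alternatives were all deposited cells, cells with at least 25% of the median total, library size alone, DESeq2 1.42.0, limma 3.58.1 on log2(TPM + 1), another filter, protein-coding genes only, pseudogenes added, and sums over blocks of 8 index numbers. Paralog shares were also taken with a minimum of 30 counts, from TPM and over all deposited cells, and complex sums from counts and over all deposited cells. Protein-coding transcripts only was added after seeing the data. The fits were also run on simulated counts, where genes were scored by adjusted p-value. That run did not examine the 2-fold calls used here. Tables and plots used Python 3.11.15, numpy 2.4.6, pandas 2.3.3, scipy 1.17.1 and matplotlib 3.10.9.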

Additional observations from a re-analysis of the deposited data

How the results depend on the processing

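The members at least 2-fold lower in A375 numbered 23 with kit #634413 and 24 with kit #634444, and the 3 higher and 13 lower with both kits were followed under every alternative. With log2(TPM + 1), the members with kit #634413 numbered 19 higher and 13 lower, those lower with both kits 6, those past 2-fold between kits 7 higher and 4 lower in A375 and 27 higher and 1 lower in Jurkat, and those whose A375 over Jurkat value was lower with kit #634444 than with kit #634413 by at least 2-fold numbered 29. On that scale, 4513 of 11126 genes were higher and 1326 lower with kit #634413. Between kits, 947 of 12888 genes were higher and 286 lower in A375, and 1889 of 10109 and 131 in Jurkat. In the difference of the kits, 2085 of 11801 genes were lower. The members compared numbered 78, 81, 79 and 79. Unlike with counts, the shares of higher members in Jurkat and of lower members in the difference stood above those of all genes. With at least 1 count in at least 3 cells, 8 members were higher with kit #634444, 5 with both kits and 8 in the difference of the kits. Of all genes, 8793 of 21989 were higher with kit #634444 and 6003 of 24701 in the difference, with 86 members compared each time. With blocks of 8 index numbers, 7 members were higher with kit #634413 and 5 with both kits, and the kit difference in A375 had 1 higher and 4 lower. Of all genes, 6352 of 17584 were higher with kit #634413, and 3035 of 19650 were higher and 2085 lower between kits in A375. Each of these fits compared 84 members. With all deposited cells, 21 members were lower with both kits, and 1 was lower between kits in A375, as with cells of at least 25% of the median total and with DESeq2. Library size alone left 1 member higher between kits in A375. Protein-coding transcripts only, chosen after seeing the data, gave 7 higher and 0 lower of 79 members between kits in A375 and 10 and 5 of 78 in Jurkat. Of all genes, 808 were higher and 412 lower of 10200 in A375, and 844 and 466 of 8305 in Jurkat. Of the pathway list, 6 genes were higher with kit #634413 with all deposited cells, 7 with DESeq2 and 31 with log2(TPM + 1), where 1 was lower, and with kit #634444 20 were higher and 7 lower, with 7 lower also for protein-coding transcripts. Directions turned for NDUFB2 with kit #634413 under log2(TPM + 1), at 0.34, and for COX6C with kit #634444 under protein-coding transcripts, at 0.64. As shares of counts in place of TPM, the A375 less Jurkat medians of complex I were -0.0949 and -0.133 percentage points, and those of all members with kit #634444 were -0.322. The UQCRHL share difference with kit #634413 was 3.69 percentage points over all deposited cells. The cause of these changes was not tested. The other 185 summary values moved by less than 1.5 times or less than the spread over cells. Of the values followed outside this summary, 392 stayed the same, 153 moved and 2 turned direction. No paired analysis was possible because the labels number no replicates across groups.

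The values of ATP5MC2 rest on 203 counts, with none on its canonical transcript, and those of the restricted forms on the counts of a few cells. Why these counts are low was not tested. Library pools are not named, so a difference between pools cannot be told apart from one between groups.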
